A study of Mus musculus with 6 samples.

Results

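Fibroblast growth factor (FGF) signalling was followed in mouse bone through 10 genes, chosen by name from the 23420 genes of the deposited table. They were the receptors Fgfr1, Fgfr2 and Fgfr3, the feedback inhibitors Spry1, Spry2 and Spry4, and the ligands Fgf2, Fgf7, Fgf9 and Fgf18. All 10 had a row in the table, and they were chosen with earlier results of these data known. The humerus was taken from C57BL/6 mice at postnatal day 6, its marrow was washed out with PBS, and poly(A) RNA was sequenced in 3 libraries from mice with a conditional deletion of Tfam (Tfam cKO) and 3 from controls (Control). Tfam encodes mitochondrial transcription factor A, which packages mitochondrial DNA and is needed for its transcription. The deletion was driven by Prx1-Cre, which acts in the limb mesenchyme that forms cartilage, bone and connective tissue, so blood cells, vessels and osteoclasts in the same bone keep the gene. The labels give neither the alleles that the control mice carried nor how many animals stand behind the libraries, so p-values measure only the spread between these libraries, which may be technical.

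FGF ligands bind receptor tyrosine kinases on the cell surface together with heparan sulfate, a sugar chain of membrane and matrix proteoglycans. The activated receptor signals through RAS and the kinase ERK, and ERK induces the Sprouty proteins, which in turn damp the pathway. In the growing limb FGFR3 restrains the growth plate, FGFR1 acts in osteoblasts and hypertrophic chondrocytes, and FGFR2 acts in the cells of the perichondrium and periosteum that give rise to osteoblasts. FGF9 and FGF18 are the ligands best known for signalling to cartilage and bone in this setting.

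The libraries held 1441152 to 1714770 reads assigned to genes. Tfam was lower in the Tfam cKO libraries, at 28.1, 46.1 and 47.6 normalized reads, against 61.3, 72.1 and 78.6 in Control, with no overlap (log2 fold change -0.81, limma adjusted p = 0.0246). That call was lost when Tfam cKO library 1 was left out (adjusted p = 0.0748), when Control library 1, 2 or 3 was (0.0503, 0.0704 and 0.107), and with DESeq2 (0.0564). A normalized read is a read count divided by 1 size factor per library, as the authors deposited it. Fold changes were fitted with limma on log2(normalized reads + 1), a scale on which the change of low genes is understated, and Benjamini-Hochberg adjustment ran over all 14438 genes whose mean was 1 or more. Genes are called here where the adjusted p is under 0.05.

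Of the 10 genes, 4 rose in Tfam cKO bone, and these were 2 receptors, Fgfr1 and Fgfr3, and 2 inhibitors, Spry1 and Spry4. None of the 8 that were tested fell by limma (0 lower), with 1 lower at an unadjusted p under 0.05 (Fgf9). After adjustment 0 were lower by edgeR or DESeq2. Another 4, Fgfr2, Spry2, Fgf7 and Fgf9, did not pass, and Fgf2 and Fgf18 lay below the filter and were not tested. Over all tested genes 6.42% rose, 6.01% fell and 12.4% changed in either direction. Since the 10 were chosen with earlier results of these data known, a count above these shares is not independent evidence. The count of 4 was 1 without Tfam cKO library 1, 3 without Tfam cKO library 2, 1 without Tfam cKO library 3, 2 without Control library 1, 1 without Control library 2 and 2 without Control library 3, and it was 2 with DESeq2. The median log2 fold change was 0.44 over the 8 tested genes and 0.01 over all tested genes. The groups did not overlap for 4 of the 8 in the higher direction and for 1 in the lower, against 16.6% and 15.4% of all tested genes (32.1% in either direction). The 1 lower gene, Fgf9, was apart in normalized reads only, since Tfam cKO library 2 and Control library 1 each held 4 reads. Since whole bone was sequenced, fewer cells of a type and less RNA per cell cannot be told apart in any of these values.

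**Figure D1:**
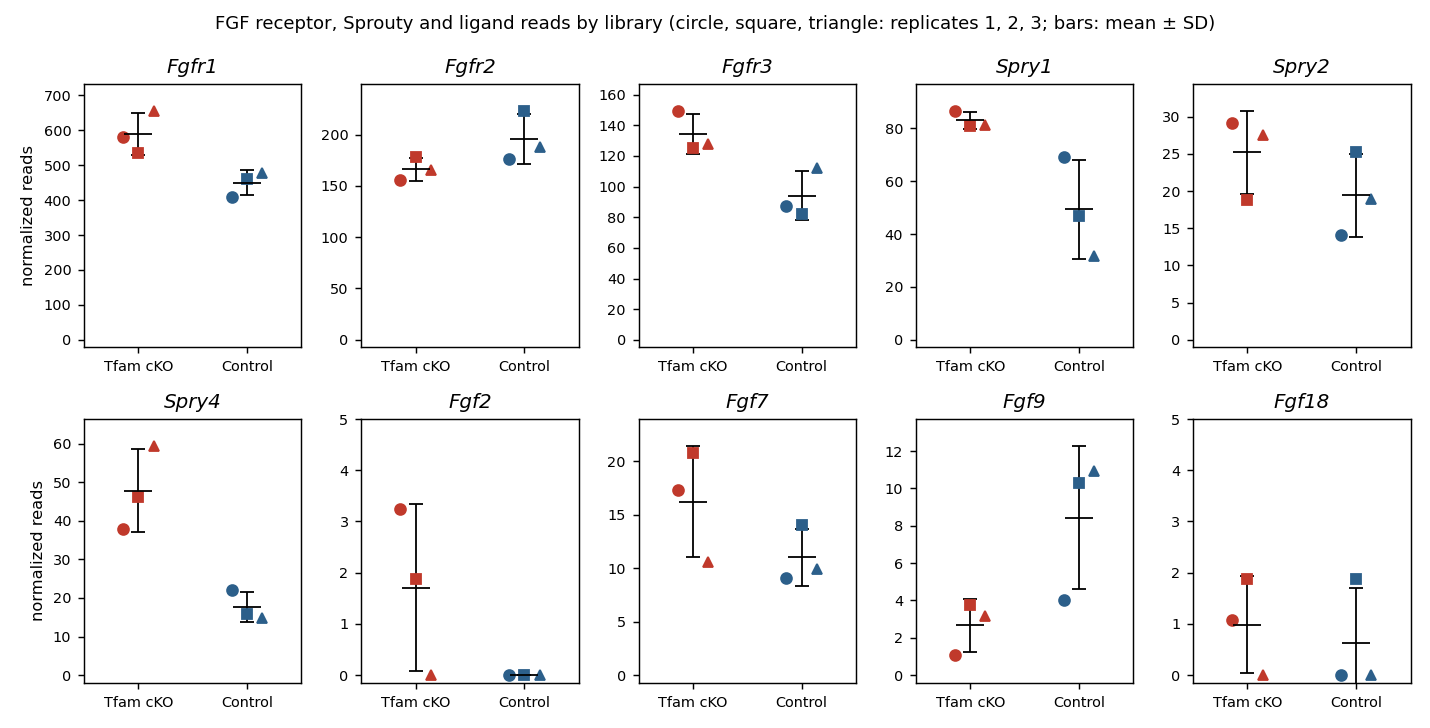
Normalized reads (vertical axis, linear, starting at 0 apart from a margin) of the 10 genes in each Tfam cKO library (red) and each Control library (blue), with the mean and SD of each group as bars. Fgfr1, Fgfr3, Spry1 and Spry4 are higher in every Tfam cKO library than in any Control library, Fgf9 is lower in every one, and Fgf2 and Fgf18 stay below 4 normalized reads in all 6. For Fgf9 the closest pair, Tfam cKO library 2 and Control library 1, held 4 reads each.

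Among the receptors, Fgfr1 (chromosome 8, plus strand, 25518772 to 25575714, mm10, 18 exon blocks) was the highest. It had 581, 536 and 655 normalized reads in Tfam cKO libraries, against 410, 460 and 478 in Control. Every Tfam cKO library lay above every Control library, and the mean was 1.31-fold higher at 591 ± 60.2 against 449 ± 35.5 (SD, n = 3 each). Limma gave a log2 fold change of 0.39 ± 0.11 (SE, adjusted p = 0.0311). The call was lost when Tfam cKO library 1 or 3 was left out (adjusted p = 0.0701 and 0.113), when Control library 1, 2 or 3 was (0.149, 0.0637 and 0.0574), and after quantile normalization (0.0845).

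Fgfr3 (chromosome 5, plus strand, 33721724 to 33737068, 19 exon blocks), the receptor that restrains chondrocyte proliferation, had 149, 125 and 128 normalized reads in Tfam cKO libraries. Control libraries had 87.4, 82.4 and 112, so the highest Control library still lay below the lowest Tfam cKO library. The mean was 1.43-fold higher, at 134 ± 13.2 against 94.1 ± 16.1 (SD, n = 3 each), with a log2 fold change of 0.52 ± 0.14 (SE, limma adjusted p = 0.0349). The call was lost when Tfam cKO library 1 or 3 was left out (adjusted p = 0.127 and 0.0768), when Control library 1 or 2 was (0.131 and 0.112), and with DESeq2 (0.119). In the authors' deposited table, Fgfr1 (q = 0.0854) and Fgfr3 (q = 0.0669) were above 0.05.

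Fgfr2 (chromosome 7, minus strand, 130162451 to 130266808, 19 exon blocks), which binds FGF7 and FGF10 in its epithelial splice form and other FGFs in its mesenchymal form, did not pass. It had 156, 178 and 165 normalized reads in Tfam cKO libraries, against 176, 223 and 188 in Control. The groups overlapped by 1 Tfam cKO library, and the log2 fold change of -0.23 had a 95% interval of -0.49 to 0.03 (limma adjusted p = 0.246). The table counts reads per gene, so the splice forms of the receptors were not analysed here.

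Spry4 (chromosome 18, minus strand, 38586265 to 38601268, 2 exon blocks), an inhibitor that ERK signalling induces, had 37.9, 46.1 and 59.3 normalized reads in Tfam cKO libraries, against 22.1, 15.9 and 14.9 in Control. The lowest Tfam cKO library was well clear of the highest Control library. The mean was 2.71-fold higher, at 47.8 ± 10.8 against 17.6 ± 3.89 (SD, n = 3 each), and the log2 fold change was 1.38 ± 0.24 (SE, limma adjusted p = 0.00310). Spry4 stayed past the threshold in all 17 alternative fits, with adjusted p up to 0.0220, and its q-value in the authors' deposited table was 2.69e-05.

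Spry1 (chromosome 3, plus strand, 37639950 to 37644599, 3 exon blocks), another ERK-induced inhibitor, had 86.6, 81.0 and 81.5 normalized reads in Tfam cKO libraries. Control libraries spread widely, at 69.3, 46.8 and 31.8, all lower. The mean was 1.68-fold higher, at 83.0 ± 3.10 against 49.3 ± 18.9 (SD, n = 3 each), with a log2 fold change of 0.81 ± 0.23 (SE, limma adjusted p = 0.0365). The call was lost when Tfam cKO library 1, 2 or 3 was left out (adjusted p = 0.0958, 0.0709 and 0.0947), when Control library 2 or 3 was (0.0832 and 0.123), and with DESeq2 (0.0771). Without Control library 3 the log2 fold change was 0.53. The call held in the authors' deposited table (q = 0.0229).

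Spry2 (chromosome 14, minus strand, 105891947 to 105896819, 2 exon blocks), the third inhibitor of the family measured here, had 29.2, 18.8 and 27.5 normalized reads in Tfam cKO libraries, against 14.1, 25.3 and 18.9 in Control. Tfam cKO library 2 lay among the Control values. The log2 fold change of 0.37 had a 95% interval of -0.24 to 0.99 (limma adjusted p = 0.437), so a rise as large as that of Spry1 lies within it.

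The start regions of 2 genes that rose, Spry1 and Fgfr3, and of 2 relatives that did not pass, Spry2 and Fgfr2, are compared as printed sequence, each with 250 bases before and 50 after the start site (RefSeq, GRCm38.p6, which shares its coordinates with mm10). The Spry1 region is chr3:37639697-37639996 on the plus strand, that of Spry2 is chr14:105896770-105897069 on the minus strand, that of Fgfr3 is chr5:33721474-33721773 on the plus strand, and that of Fgfr2 is chr7:130266759-130267058 on the minus strand. Capitals mark the ETS core CCGGAA, the motif bound by ERK-responsive factors such as ETV4 and ETV5.
Spry1: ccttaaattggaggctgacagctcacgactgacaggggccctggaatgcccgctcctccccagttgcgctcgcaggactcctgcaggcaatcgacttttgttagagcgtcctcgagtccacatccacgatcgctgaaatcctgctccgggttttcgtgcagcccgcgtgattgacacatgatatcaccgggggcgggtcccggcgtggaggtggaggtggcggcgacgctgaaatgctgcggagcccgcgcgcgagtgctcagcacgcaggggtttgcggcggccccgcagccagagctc
Spry2: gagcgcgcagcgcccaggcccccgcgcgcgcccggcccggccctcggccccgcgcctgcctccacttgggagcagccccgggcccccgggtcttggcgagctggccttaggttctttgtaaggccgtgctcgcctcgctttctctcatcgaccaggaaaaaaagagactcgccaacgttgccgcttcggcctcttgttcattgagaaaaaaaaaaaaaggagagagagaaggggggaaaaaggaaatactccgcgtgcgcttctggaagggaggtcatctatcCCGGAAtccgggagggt
Fgfr3: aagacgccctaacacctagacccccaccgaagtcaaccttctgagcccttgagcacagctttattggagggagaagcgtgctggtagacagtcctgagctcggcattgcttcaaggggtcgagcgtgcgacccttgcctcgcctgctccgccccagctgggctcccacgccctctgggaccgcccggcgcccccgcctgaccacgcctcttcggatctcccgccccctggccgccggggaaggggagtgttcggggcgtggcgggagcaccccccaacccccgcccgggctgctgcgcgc
Fgfr2: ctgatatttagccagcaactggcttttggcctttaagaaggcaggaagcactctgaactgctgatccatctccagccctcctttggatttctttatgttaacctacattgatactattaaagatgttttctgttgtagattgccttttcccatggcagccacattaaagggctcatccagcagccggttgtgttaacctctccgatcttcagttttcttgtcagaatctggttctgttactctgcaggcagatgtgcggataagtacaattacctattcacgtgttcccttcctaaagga
Regions of 8 of the 10 genes were used, all but Spry4 and Fgfr1, and Fgfr3 had 2, of which the more upstream one is printed. Spry4, the gene that rose most, and Fgfr1 were therefore not searched for motifs. G and C made up 64.3% of the bases for Spry1, 62.7% for Spry2, 69.7% for Fgfr3 and 43.7% for Fgfr2, beside a median of 52.7% over 32851 regions of the same length. All motifs were searched on both strands. CCGGAA was found in 1 of the 8 genes, Spry2, at base 34 counted from 1 at the start site, and in 14.9% of all regions. The AP-1 motif TGANTCA (7.81% of all regions), the ATF4 element TGATGNAA (3.97%) and the EGR1 motif GCGTGGGCG (0.612%) were found in 0 of the 8. No match overlapped another motif. These matches describe the letters of a short window only.

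The listed ligands were at the low end of what this depth measures. Fgf9 (chromosome 14, plus strand, 58072686 to 58112720, 3 exon blocks), which acts on chondrocytes, had 1.08, 3.77 and 3.17 normalized reads in Tfam cKO libraries, against 4.02, 10.3 and 10.9 in Control. Every Tfam cKO library was below every Control library in normalized reads, but Tfam cKO library 2 and Control library 1 each held 4 reads. The total was 8 reads in Tfam cKO and 26 in Control, which makes a depth-corrected ratio of 0.322 (95% counting interval 0.126 to 0.733). The log2 fold change of -1.34 ± 0.50 (SE) did not pass, with a limma adjusted p of 0.104, and it did not pass in any of the 17 alternatives (0.0804 to 0.320).

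Fgf7 (chromosome 2, plus strand, 126034658 to 126091185, 4 exon blocks), a mesenchymal ligand of epithelial FGFR2, had 17.3, 20.7 and 10.6 normalized reads in Tfam cKO libraries, against 9.04, 14.1 and 9.95 in Control. The groups overlapped, and the log2 fold change of 0.49 had a 95% interval of -0.24 to 1.22 (limma adjusted p = 0.380).

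Fgf2 (chromosome 3, plus strand, 37348653 to 37404830, 3 exon blocks), a matrix-bound ligand, had 3, 2 and 0 reads in the Tfam cKO libraries and 0 reads in each Control library, which allows up to 3 reads over that group. Fgf18 (chromosome 11, minus strand, 33117431 to 33147400, 5 exon blocks), a ligand known from the perichondrium, had 1, 2 and 0 reads in Tfam cKO libraries and 0, 2 and 0 in Control. A difference in either ligand was not detectable at this depth, and no fold change is given.

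**Figure D2:**
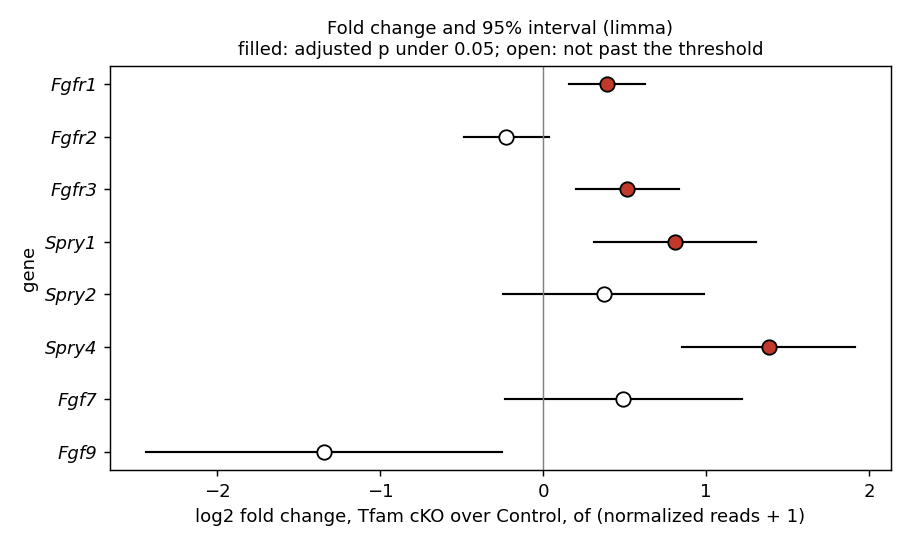
Log2 fold change of Tfam cKO over Control (horizontal axis) with its 95% interval from limma for the 8 tested genes. Filled circles mark the 4 genes past the threshold, all to the right of 0, with Spry4 farthest at 1.38, and the intervals of Fgfr2, Spry2 and Fgf7 cross 0.

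Levels of different genes were compared as normalized reads per kilobase of exon. Fgfr1 led in both groups, at 118 ± 12.0 per kilobase in Tfam cKO and 89.7 ± 7.09 in Control (SD, n = 3 each). Below it in Tfam cKO bone came Spry1 (33.3 ± 1.24), Fgfr2 (31.1 ± 2.08) and Fgfr3 (30.5 ± 2.997), whose libraries overlapped. In Control bone the order was Fgfr2 (36.6 ± 4.58), Fgfr3 (21.4 ± 3.65) and Spry1 (19.8 ± 7.58), where Fgfr2 stood apart and the last pair overlapped. Spry2 followed at 12.1 ± 2.67 in Tfam cKO and 9.30 ± 2.70 in Control. Spry4 was at 10.4 ± 2.35 in Tfam cKO, overlapping Spry2, and at 3.84 ± 0.85 in Control, where it lay below Spry2 and overlapped Fgf7. Among the listed ligands Fgf7 had the highest mean in both groups, at 6.06 ± 1.93 in Tfam cKO, where its libraries overlapped those of Fgf2, and 4.12 ± 0.999 in Control. Fgf2, Fgf9 and Fgf18 had group means below 3 per kilobase in both groups and were not separable in Tfam cKO.

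The make-up of the receptor pool was compared as shares within each library. Fgfr2 made up 16.3%, 19.7% and 16.2% of the summed receptor level per kilobase in Tfam cKO libraries, against 24.4%, 27.4% and 22.5% in Control, without overlap. Fgfr1 made up 64.8%, 63.4% and 68.6% in Tfam cKO libraries, against 60.8%, 60.3% and 61.1% in Control, also without overlap. The exact permutation test, two-sided, gave each of these shares p = 0.1, and no smaller p is possible with 3 libraries a group (adjusted p = 0.15 over the 9 such quantities computed). The Fgfr3 share was 19.0%, 16.9% and 15.3% in Tfam cKO libraries, against 14.8%, 12.3% and 16.4% in Control, and the groups overlapped (exact permutation p = 0.2, adjusted 0.257).

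The summed level of the 3 Sprouty genes relative to the 3 receptors, a ratio within each library that no scaling factor per library can move, was also compared. Its log2 value was -1.65, -1.71 and -1.70 in Tfam cKO libraries, against -1.77, -2.15 and -2.64 in Control. All Tfam cKO libraries lay above the Control libraries, with Control library 1 the closest. The difference was 0.50 (exact permutation p = 0.1, the smallest possible, adjusted 0.15), and it was 0.27 without Control library 3. Within the Sprouty genes, Spry4 held 14.5%, 19.5% and 22.0% of the summed level in Tfam cKO libraries, against 12.2%, 10.1% and 13.0% in Control, again without overlap (exact permutation p = 0.1, adjusted 0.15).

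**Figure D3:**
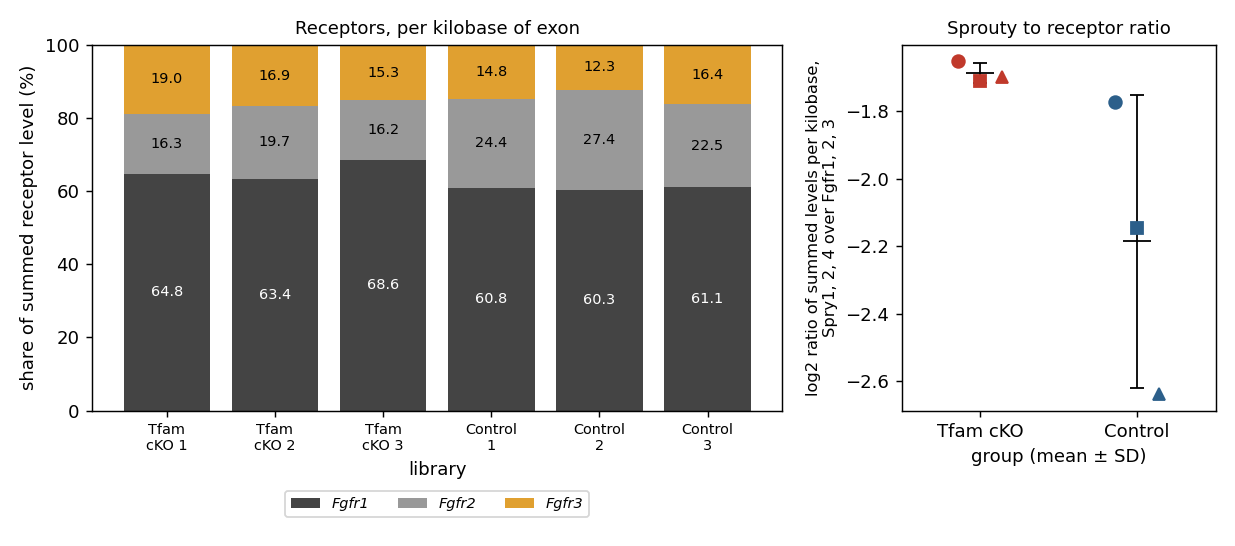
Left, share of each receptor in the summed level of Fgfr1, Fgfr2 and Fgfr3 per kilobase of exon (stacked bars in percent, 1 bar per library). Right, log2 ratio of the summed Sprouty level to the summed receptor level per kilobase (points are libraries, bars the mean and SD). The Fgfr2 share is 16.2% to 19.7% in Tfam cKO and 22.5% to 27.4% in Control, and the 3 Tfam cKO ratios lie close together above the 3 Control ratios.

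Another 93 genes of the pathway, in 6 lists also chosen with earlier results of these data known, gave the setting for the 10. Of the 73 tested 12 rose and 2 fell, beside 6.42% and 6.01% of all tested genes. The median log2 fold change of the 73 was 0.14, and the 12 were 6 without Tfam cKO library 3. The rest of the FGF family held 20 genes, of which 8 passed the filter, and 0 rose or fell by limma. At an unadjusted p under 0.05 limma had 1 higher and 1 lower, and edgeR and DESeq2 called 0 after adjustment. Fgf23, the phosphate-regulating hormone of bone cells, had 5.41, 5.65 and 5.29 normalized reads in Tfam cKO libraries, against 1.004, 2.81 and 1.99 in Control. These groups did not overlap, but the totals of 16 and 6 reads were small (log2 fold change 1.18 ± 0.46 SE, limma adjusted p = 0.115). Fgf21, a hormone secreted under metabolic and mitochondrial stress, had 3, 3 and 0 reads in Tfam cKO libraries and 0 in each Control library. Fgf13, an intracellular relative that does not act through FGF receptors, had a log2 fold change of -0.69 (limma adjusted p = 0.137). Fgf10, a mesenchymal ligand of epithelial FGFR2, had 8 reads in Tfam cKO and 2 in Control, and its depth-corrected ratio was 4.19 (95% counting interval 0.836 to 40.5). Fgfrl1, a receptor without a kinase domain, was at 43.7 ± 10.04 against 44.5 ± 7.04 normalized reads (SD, n = 3 each), a log2 fold change of -0.04 that turned positive without Tfam cKO library 2 or 3 (0.07 and 0.03) and without Control library 2 (0.09).

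Coreceptors, among them the proteoglycans whose heparan sulfate presents FGFs, were the list with the most calls. Of 18 coreceptors and binding proteins 13 were tested, and 6 rose and 1 fell, beside 6.42% and 6.01% of all tested genes. With any 1 library left out, 4 to 6 of the coreceptors and binding proteins rose and 0 to 1 fell. The median of the 13 was 0.40 on the log2 scale. Gpc1, a glypican anchored in the cell membrane, had 1244, 1090 and 1320 normalized reads in Tfam cKO libraries, against 428, 523 and 381 in Control. The groups were far apart, with a log2 fold change of 1.46 ± 0.12 (SE, limma adjusted p = 2.87e-05). Hspg2, the matrix proteoglycan perlecan, was at 1393 ± 95.3 against 885 ± 31.3 normalized reads (SD, n = 3 each, log2 fold change 0.65 ± 0.10 SE, adjusted p = 0.00107). Sdc2, a syndecan, was at 425 ± 82.6 against 230 ± 24.1 (0.87 ± 0.14, adjusted p = 0.00212). The other members that changed, named after their values were seen, were the syndecans Sdc1 (0.60) and Sdc3 (0.40) and the glypican Gpc4 (0.58), which rose, and the membrane protein Flrt3 (-1.44), which fell. Flrt3 was low, with 14 reads in Tfam cKO and 45 in Control. Gpc1, Hspg2, Sdc2 and Sdc1 kept their calls in all 17 alternatives. The Sdc3 call was lost when Tfam cKO library 1 or 3 was left out (adjusted p = 0.0958 and 0.0793), when Control library 1 or 3 was (0.0854 and 0.0986), and after quantile normalization (0.0631). The Gpc4 call held without Control library 1, was lost without each of the others (0.0557 to 0.0891) and was lost with DESeq2 (0.144). That of Flrt3 was lost without Control library 3 (0.0678) and with DESeq2 (0.111).

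Of 12 enzymes that build or trim heparan sulfate, 2 rose and 1 fell, beside 6.42% and 6.01% of all tested genes. The median of the 12 was 0.38 on the log2 scale. Glce, the epimerase that turns glucuronic into iduronic acid in the chain, was at 70.8 ± 10.5 normalized reads in Tfam cKO and 35.8 ± 1.66 in Control (SD, n = 3 each, log2 fold change 0.95 ± 0.17 SE, limma adjusted p = 0.00343), a call kept in all 17 alternatives. Ext2, part of the polymerase, rose (0.50, adjusted p = 0.0402), and Ndst2, a sulfotransferase, fell (-0.51, adjusted p = 0.0289). The Ext2 call held without Control library 3, was lost without each of the others (adjusted p = 0.0603 to 0.161), and was lost after quantile normalization (0.0564) and with DESeq2 (0.0946). The Ndst2 call was lost when any of the 6 libraries was left out (0.0533 to 0.115) and with DESeq2 (0.190).

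The proteins that carry the signal from receptor to ERK showed no called change. Of 17 transducers tested, 0 rose or fell by limma (0 higher and 1 lower at an unadjusted p under 0.05, and 0 by edgeR or DESeq2), with a median log2 fold change of 0.10. Over all tested genes 12.4% were called, so a count of 0 among 17 says little about this list. Map2k2, a kinase that activates ERK, had a log2 fold change of 0.32 (limma adjusted p = 0.193), and Frs3, a receptor adaptor, had 8 reads in Tfam cKO and 18 in Control (-0.91, adjusted p = 0.206). Of the 2135 exon bases of Frs3, 162 are shared with Gm14873 on the opposite strand, and without strand their reads cannot be told apart.

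The other feedback inhibitors of ERK did not pass either. Of 11 tested, 0 rose or fell by limma, with a median log2 fold change of 0.07. Over all tested genes 12.4% were called, so a count of 0 among 11 says little about this list. With any 1 library left out, 0 to 1 rose and 0 to 1 fell. At an unadjusted p under 0.05 limma had 3 higher and 0 lower, and edgeR and DESeq2 called 0 after adjustment. Dusp6, the phosphatase that removes phosphate from ERK and is a standard readout of FGF signalling, had 111, 102 and 139 normalized reads in Tfam cKO libraries, against 94.4, 99.3 and 112 in Control. The groups overlapped, and the 95% interval of its log2 fold change of 0.19 ran from -0.12 to 0.50 (limma adjusted p = 0.431). Spred1, a relative of the Sproutys, had 126, 120.5 and 125 normalized reads in Tfam cKO libraries, against 94.4, 67.4 and 107 in Control. It did not overlap between groups and came close to the threshold (0.48 ± 0.16 SE, adjusted p = 0.0716), which it passed without Control library 3 (0.0479) or in a robust fit (0.0421). Dusp4, a nuclear ERK phosphatase (0.86, adjusted p = 0.0719), and Nf1, a RAS inhibitor (0.43, adjusted p = 0.0735), did not pass, and Dusp4 passed without Tfam cKO library 2 (0.0288) or in a robust fit (0.0387). Il17rd, an FGF antagonist of the cell membrane, was at 16.2 ± 3.67 against 16.8 ± 5.31 normalized reads (SD, n = 3 each, -0.03, adjusted p = 0.962), and its log2 fold change turned positive without Tfam cKO library 2 (0.15) and without Control library 2 (0.19).

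Among 12 tested genes that respond to ERK, 4 rose and 0 fell by limma, beside 6.42% and 6.01% of all tested genes. At an unadjusted p under 0.05 limma had 5 higher and 0 lower, and 0 were lower by edgeR or DESeq2. The median log2 fold change of the 12 was 0.20. Ccnd1, the cyclin D1 gene of the G1 phase, had 491, 458 and 636 normalized reads in Tfam cKO libraries, against 88.4, 111 and 85.5 in Control. The groups lay far apart (log2 fold change 2.46 ± 0.14 SE, limma adjusted p = 1.10e-06), and the call was kept in all 17 alternatives. The gene shares 20 of its 3796 exon bases with Mir3962. Etv4, a transcription factor that FGF signalling induces in the limb, had 22.7, 16.004 and 25.4 normalized reads in Tfam cKO libraries, against 2.01, 10.3 and 5.97 in Control, without overlap (1.83 ± 0.45, adjusted p = 0.0191). The immediate early genes Ier2 (0.62, adjusted p = 0.0180) and Egr1 (0.82, adjusted p = 0.0286) rose as well. Etv5, the close relative of Etv4, was at 41.1 ± 4.81 against 42.5 ± 12.5 normalized reads (SD, n = 3 each, -0.02, adjusted p = 0.974), a difference that changed sign in 5 alternatives. The count of 4 was 1 without Tfam cKO library 3 and 1 without Control library 3. The Etv4 call was lost when Tfam cKO library 1 or 3 was left out (adjusted p = 0.0582 and 0.0787) and when Control library 1 or 3 was (0.0630 and 0.0539). That of Ier2 was lost without Tfam cKO library 2 or 3 (0.0525 and 0.0646), without Control library 3 (0.0729) and with DESeq2 (0.0929). That of Egr1 was lost without Tfam cKO library 3 (0.0758), when any Control library was left out (0.0514 to 0.120) and in a robust fit (0.0700), and without Tfam cKO library 3 its log2 fold change was 0.50.

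**Figure D4:**
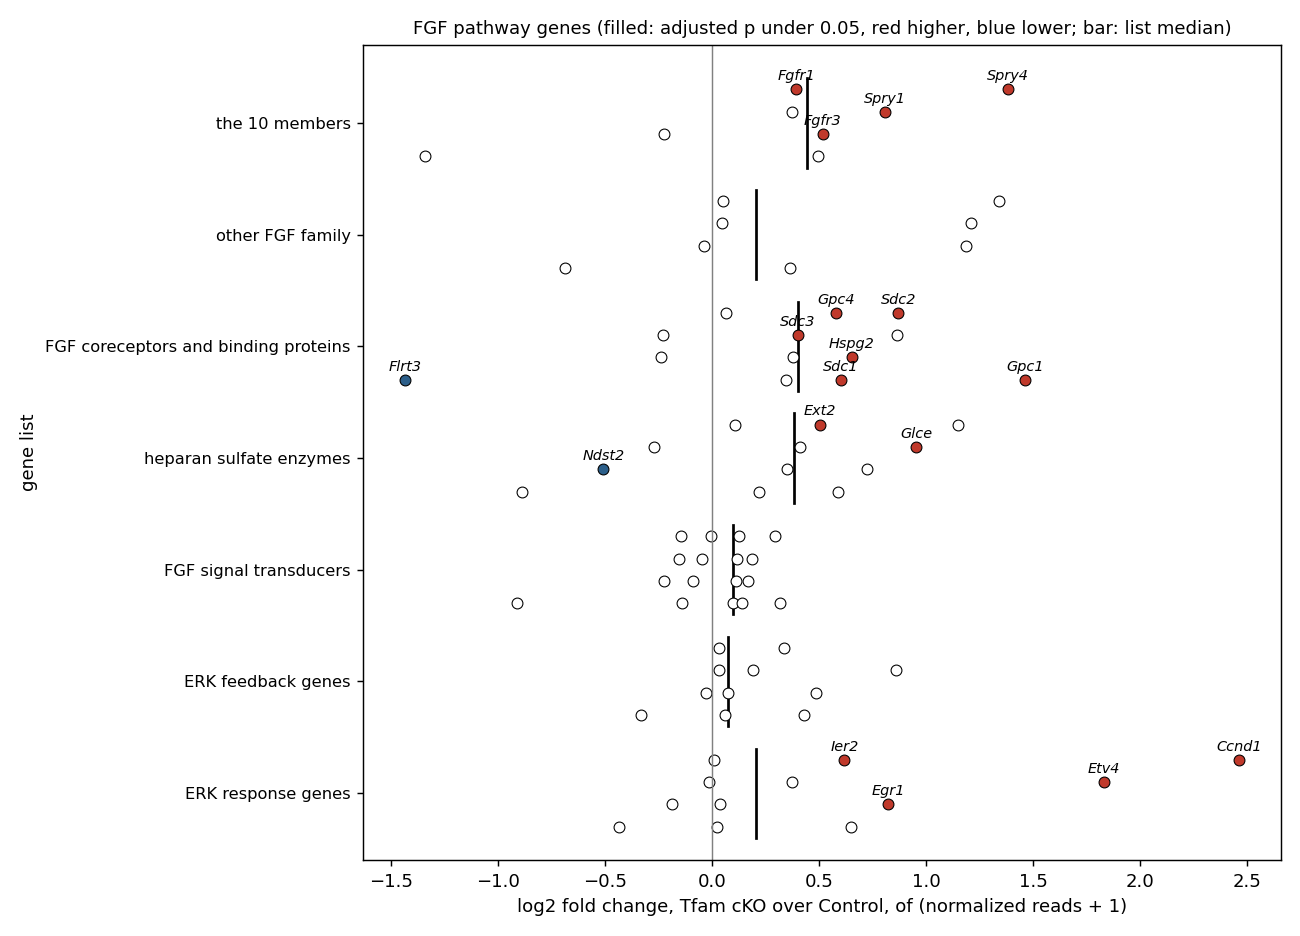
Log2 fold change of Tfam cKO over Control (horizontal axis) for every tested gene of the 10 and of the 6 pathway lists (rows), with a bar at each list's median. Filled and named points are past the threshold, and they sit among the receptors and Sproutys, the coreceptors and binding proteins, the heparan sulfate enzymes and the ERK response genes, while the other FGF family, the signal transducers and the ERK feedback genes have none.

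Markers of the cell types in the bone were read beside these results, as sums of normalized reads over each list. Over all tested genes 6.42% rose and 6.01% fell, and in lists this short a count of 1 says little. Bone markers were present in every library. The 7 osteoblast markers summed to 41838 to 46895 in Tfam cKO and 71801 to 92352 in Control, and most of that sum was Col1a1, the main bone collagen, at 37653 ± 1451 in Tfam cKO and 80953 ± 11342 in Control (SD, n = 3 each). Of these 7, Ibsp (bone sialoprotein, 1.30) and Alpl (alkaline phosphatase, 0.78) rose and Bglap (osteocalcin, -1.68) and Col1a1 (-1.09) fell, and the list's median log2 fold change was 0.14. Of 9 chondrocyte markers 4 rose, Hapln1 (2.38), Comp (2.31), Col9a1 (1.99) and Matn3 (1.47), and 1 fell, Col11a1 (-0.78), a fibrillar collagen that bone cells also make. Hapln1 had 89, 30 and 31 reads in Tfam cKO libraries, Comp 97, 52 and 43, and Col9a1 86, 38 and 31, so library 1 stood highest. In Control they had 3, 14 and 11, then 8, 15 and 14, then 10, 14 and 11. Matn3 had 27 reads in Tfam cKO and 8 in Control. Col2a1 overlapped between groups, at 497 ± 159 against 427 ± 28.9 normalized reads (SD, n = 3 each, 0.18, limma adjusted p = 0.555). The list's median log2 fold change was 1.40, with 8 of 9 positive. Its sums were lower, at 2072 to 2843 in Tfam cKO and 2873 to 3367 in Control, and Col11a1 alone had 1485 ± 74.0 in Tfam cKO and 2553 ± 223 in Control (SD, n = 3 each). Apart from Bglap and Col11a1, the markers of these 2 lists are named after their values were seen. Quantile normalization gives genes of equal rank the same value in every library, so it can hardly show a change in a gene as high as Col1a1. The Col1a1 call was lost without Control library 1 (adjusted p = 0.0831) and after quantile normalization, where its log2 fold change was 0.02. That of Matn3 was lost when any of the 6 libraries was left out (0.0504 to 0.157), with a pseudocount of 0.1 (0.0537) and with DESeq2 (0.208), and that of Hapln1 in a robust fit (0.0762). Of 5 hypertrophic chondrocyte markers 4 rose, led by Col10a1 (3.84), with sums of 2646 to 4011 against 2063 to 2124. Of 8 listed blood-forming markers 7 were used here and 3 fell, led by Vpreb1 (-3.39), with sums of 1298 to 2212 in Tfam cKO and 2150 to 2899 in Control. Of 8 markers of periosteal and connective tissue fibroblasts 2 fell, led by Dcn (-1.70), with sums of 2151 to 9759 against 3934 to 7196. These sums overlapped, and the list's median log2 fold change was 0.02, with 4 of 8 positive. Of 4 adipocyte markers 3 fell, led by Fabp4 (-0.79), with sums of 150.2 to 217 against 272 to 374. In the endothelial list 1 of 5 rose (Emcn, 0.70, lost without Tfam cKO library 3 at adjusted p = 0.0606 and without Control library 3 at 0.0510), with sums of 889 to 1034 against 861 to 906, and in the osteoclast list 1 of 5 rose (Mmp9, 0.70, and 0.517 as its adjusted p after quantile normalization), with sums of 14725 to 18755 against 12003 to 13391.

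Skeletal muscle markers varied between libraries of both groups, from 1053 to 9036 in Tfam cKO and from 939 to 6174 in Control, and 0 of 7 tested passed by limma (0 at an unadjusted p under 0.05, and 0 by edgeR or DESeq2), with Myh8 at 1.02. In the osteocyte list 0 of 5 passed by limma, with Mepe at -0.35 and sums of 3379 to 4899 against 3054 to 3955. At an unadjusted p under 0.05 limma had 1 higher and 2 lower, and edgeR and DESeq2 called 0 after adjustment. Of the 4 epidermal markers Krt5 and Krt14 were at 0 in all 6 libraries, 1 was tested and 0 passed by limma (0 at an unadjusted p under 0.05, and 0 by edgeR or DESeq2), with Krt10 at -0.37 and sums of 1.08 to 5.29 against 2.81 to 5.97. Over all tested genes 12.4% were called, so counts of 0 in lists this short say little. The part that these shifts in some of the cartilage, bone, fibroblast, fat and blood cell markers have in the values of Fgfr1, Fgfr3, Spry1 and Spry4 was not tested.

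The genes whose pattern over the 6 libraries was most like that of each receptor were found by the root mean square difference of their log2 values, each gene centred on its own mean, among 6363 other genes with a mean of at least 50 normalized reads and no predicted genes. For Fgfr1 they were Zmynd11 (0.0270), Ltbp3 (0.0350) and Plin3 (0.0354). For Fgfr2 they were Naa10 (0.0537), Mob3a (0.0553) and Cpsf1 (0.0609), and for Fgfr3 they were Scarb2 (0.0600), Osbpl1a (0.0634) and Apmap (0.0687). A smaller value means a closer match in both the size of the change and the order of the libraries.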

How the data were processed

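The authors deposited 1 table of 23420 genes with their exon blocks, exon length, q-value and 1 value per library, per the file headers. TopHat, Cufflinks and the mm10 build are named in the submitters' processing notes. Neither the counter, nor any use of strand, nor the test behind the q-values is stated in the sources used here. Values are a signal that the authors made by dividing each library's read counts by 1 size factor. In each library 100% of values are whole multiples of 1 read (tolerance 0.001 reads), so reads were recovered. In Control replicates 1 and 3 the value of 1 read is so close to 1 that this test is weaker. The authors' exon length, in bases, served for levels per kilobase. The q-value, an adjusted p-value the authors deposited, was copied for the 10 genes.

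Values were tested with limma 3.58.1 in R 4.3.3 on log2(value + 1), with a mean-variance trend and no term besides genotype, for 14438 genes with a mean of at least 1, at an adjusted p of 0.05. Alternatives were a pseudocount of 0.1 or 5, a filter mean of 5 or none, rescaling by the median of ratios, quantile normalization, removal of each library's trend with exon length, the replicate number as a block, each library left out, a robust fit, and edgeR 4.0.16 and DESeq2 1.42.0 on recovered reads. Receptor shares and Sprouty ratios used exact permutation tests in SciPy 1.17.1. Counting intervals are exact binomial at 95% and cover counting error only. On simulated data limma recovered, among 14426 genes, 40.2% of those shifted by 1 on the log2 scale and 91.9% of those shifted by 2, with 5 false among 142 calls. The simulation assumed a spread not fitted to these libraries and shifted far fewer genes than were called here, so these rates do not carry over. Shifts as small as those of Fgfr1 and Fgfr3 were not simulated.

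The 10 genes and all lists were chosen with earlier results of these data known. The genes named are the 10, Tfam, the 3 smallest p of each pathway list with every called gene where there are 6 or fewer, Fgf21, Fgf23, Fgfrl1, Dusp6, Etv4, Etv5, Spred1 and Il17rd, the smallest p of each marker list, and the 3 closest patterns to each receptor. A further gene that this rule names is not reported here. Of the 10 genes, 0 share exon bases with another gene of the table. Libraries of 1 group differed by more than sampling noise, so none was counted as a copy of another.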

Additional observations from a re-analysis of the deposited data

How the results depend on the processing

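All 8 tested genes of the 10 kept their direction in each of the 17 alternative fits, and Spry4 stayed past the threshold in each. The count of 4 higher genes was 1 to 3 with any 1 library left out, 2 with DESeq2 (Fgfr1 and Spry4), 2 by the authors' deposited q-values (Spry1 and Spry4) and 3 after quantile normalization. It was 4 with every other fit without a block. The count of lower genes was 0 in every fit and with any library left out (0 to 0). Over all genes, 1795 calls became 1140 with DESeq2 and 891 to 1807 with any 1 library left out (1166 without Tfam cKO library 1, 1090 without Tfam cKO library 3, 891 without Control library 1 and 1103 without Control library 3). Of the 93 other pathway genes, the 12 higher became 6 to 14 and the 2 lower 0 to 2 with any 1 library left out (6 higher without Tfam cKO library 3; 1 lower without Tfam cKO library 3 or Control library 1 or 2, and 0 without Control library 3), and the 2 lower became 0 with DESeq2. The rise of the Sprouty to receptor ratio was 0.27 to 0.71 with any 1 library left out (0.27 without Control library 3, 0.71 without Control library 1), and the difference in the Fgfr3 share was 1.47 to 3.49 percentage points. Without Control library 1, 61.2% of all calls were higher, against 51.6% with every library. Of the differences that changed sign, that of Col1a1 had been called. It was 0.022 after quantile normalization, which can hardly show a change in so high a gene. The others had not been called. Etv5 was 0.00298 after quantile normalization, 0.00232 with the length trend removed and -0.20 to 0.20 with any 1 library left out. Leaving out 1 library also gave -0.21 to 0.085 for Fgfrl1, -0.24 to 0.19 for Il17rd, -0.63 to 0.10 for Krt10 and, for Fgf1, -0.061 to 0.15. The causes of these changes were not tested. Leaving out a library alters both the number of libraries and which ones are compared.

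Deviations of same-numbered libraries correlated at -0.229, 0.00958 and 0.0871, and those of differently numbered libraries at -0.260 to 0.255. With 3 libraries a group these values cannot show whether the replicate numbers pair the samples, and the labels do not say. With the replicate number as a block, 2 of the 10 genes were higher (Spry1 and Spry4), with Fgfr1 at adjusted p = 0.0540 and Fgfr3 at 0.0632, 1290 genes were called, and 10 of the other pathway genes were higher and 1 lower. The block also ended the calls of Sdc3 (adjusted p = 0.0600), Ext2 (0.0562), Egr1 (0.0581), Ndst2 (0.0629), Col1a1 (0.0540) and Matn3 (0.0787), brought Dusp4 past the threshold (0.0466), and changed the call of no other gene among the 56 whose fold changes were recomputed. At 1441152 to 1714770 reads per library, genes with few reads such as the ligands are measured loosely, and differences in them can be missed.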

Other observations

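Among the FGF ligands in the table, Fgf1, which can bind every FGF receptor and was singled out after its values were seen, stood above the 4 ligands described. It had 67.1, 81.0 and 79.4 normalized reads in Tfam cKO libraries, against 62.3, 83.4 and 74.6 in Control. Per kilobase of exon that was 19.4 ± 1.94 in Tfam cKO and 18.8 ± 2.71 in Control (SD, n = 3 each), above Fgf7 in every library. The groups overlapped, and its log2 fold change of 0.05 had a 95% interval of -0.29 to 0.39 (limma adjusted p = 0.872). Without Control library 1 the log2 fold change was -0.06.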
